A study of Mus musculus with 4 samples.

Results

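The peroxide and superoxide detoxification enzymes were described here as 10 genes chosen by symbol, out of 15981 genes listed in at least 1 of the deposited tables. They comprise the superoxide dismutases *Sod1* and *Sod2*, catalase *Cat*, the glutathione peroxidase *Gpx1*, the peroxiredoxins *Prdx1*, *Prdx2*, *Prdx3*, *Prdx4* and *Prdx6*, and thioredoxin *Txn1*. RNA was sequenced from CD8+ T cells that had been recovered from B16 melanomas, in 2 libraries of Tc9 cells and 2 libraries of Tc1 cells. Both groups were Thy1.1+ Pmel-1 CD8+ T cells, labelled as C57BL/6 and taken, by the methods, from Pmel-1 transgenic donors of a B6 congenic strain with the Thy1a allele, which carry a transgenic receptor for the melanoma antigen gp100, and the age of the animals is not given in the sources used here. The methods describe activation with antibodies against CD3 and CD28 and, in some experiments, with a gp100 peptide, and do not say which was used for these cells. Tc9 cells had been cultured with IL-4, TGF-β and an antibody against IFN-γ, and Tc1 cells with human IL-2. The culture took 5 days, and its last part was in IL-2 medium for both groups. Recipients were Thy1.2+ B6 animals with tumors of 10 days that also received cyclophosphamide, peptide-pulsed dendritic cells and IL-2, and the transferred cells were sorted 14 days later. The methods of the study name 6 mice, whose RNA was pooled to 2 libraries per group, and do not say whether these were 6 in each group or in all, so that the number behind a library is not known and p-values measure only the spread between pools, which may be technical.

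Superoxide, a by-product of respiration and the product of NADPH oxidases, is converted by superoxide dismutases to hydrogen peroxide. Hydrogen peroxide is then removed by catalase, by glutathione peroxidases that draw electrons from glutathione, and by peroxiredoxins that draw electrons mostly from thioredoxin. NADPH, through thioredoxin reductase and glutathione reductase, is the final electron source of both systems. In T cells the same peroxides also act as signals after receptor engagement.

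The tables list genes in the character order of their numeric identifiers, and the tables end at different places in this order. The enzymes could therefore be compared over different numbers of libraries. All 4 libraries reached 3 of them (*Prdx3*, *Prdx6* and *Cat*). *Gpx1* was reached by 3 libraries, all except Tc1 replicate 1. Only the replicate 2 library of each group reached *Prdx1*, *Prdx2*, *Txn1*, *Sod1* and *Sod2*, and only Tc9 replicate 2 reached *Prdx4*. Every enzyme was listed in every library that reached it, and all 9 with a comparison passed the filter on low counts. The depth was 30822953 to 31927162 counts per library, and 3 counts, the smallest level read here, correspond to 0.0940 to 0.0973 CPM (counts scaled by library size). The levels of the individual enzymes below are FPKM, fragments scaled by gene length and library size, and therefore can be set side by side between genes. In RNA of a whole sorted population, fewer cells that express a gene and less RNA per cell cannot be told apart.

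The peroxiredoxins share a catalytic cysteine that reacts with the peroxide. The coding sequence around it is shown because *Prdx1* and *Prdx3*, with the lower values in Tc9, and *Prdx6*, with the higher ones, belong to different types of this family. *Prdx1* to *Prdx4* are 2-Cys peroxiredoxins, most of which are recycled by thioredoxins, and *Prdx6* is the 1-Cys member. Each line gives 45 bases of the coding strand from GENCODE M21 on GRCm38, with the codon of the catalytic residue in capitals. In *Gpx1* this is the TGA codon that is read as selenocysteine.
Prdx1: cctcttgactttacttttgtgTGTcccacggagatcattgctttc
Prdx2: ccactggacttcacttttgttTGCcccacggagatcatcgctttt
Prdx3: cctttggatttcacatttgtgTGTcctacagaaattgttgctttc
Prdx4: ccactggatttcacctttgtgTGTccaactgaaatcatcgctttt
Prdx6: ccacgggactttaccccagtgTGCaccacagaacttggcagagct
Gpx1: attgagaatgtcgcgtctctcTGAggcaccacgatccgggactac

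The *Prdx1* stretch holds codon 52 in exon 3 (chr4:116691802-116691846, plus strand), and that of *Prdx2* codon 51 in exon 3 (chr8:84970462-84970506, plus strand). In *Prdx3* codon 109 lies next to the junction of exons 3 and 4 (chr19:60870106-60871430, minus strand, with the intron inside this span), and in *Prdx4* codon 127 lies next to that of exons 2 and 3 (chrX:155332439-155334848, minus strand, likewise). *Prdx6* codon 47 is in exon 2 (chr1:161247347-161247391, minus strand) and *Gpx1* codon 47 in exon 1 (chr9:108339430-108339474, plus strand). Of the 45 bases, *Prdx2* has 38 in common with *Prdx1*, *Prdx3* and *Prdx4* have 35 each, and *Prdx6* has 23. Over their whole transcripts, no enzyme shared an exact run of 50 bases with another of the 10. *Prdx3*, *Prdx4*, *Gpx1* and *Cat* shared no such run with any annotated gene. *Sod1* shared 23.1% of its 50-base words with 1 processed pseudogene, *Prdx2* shared 8.96% with 1 and 0.256% with another, *Prdx1* shared 7.48%, 6.33% and 0.356% with 3, and *Txn1* shared 2.495% with 1. *Prdx6* shared 0.299% with the protein-coding *Prdx6b*. None of these genes is listed in the tables, and how reads common to both were counted is not given in the sources used here, so that the counts of *Sod1*, *Prdx1*, *Prdx2*, *Prdx6* and *Txn1* carry this uncertainty. *Sod2* shared runs with 198 genes, 142 of them listed, at most 0.826% of its words with any of them.

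Superoxide dismutases were compared in the replicate 2 libraries alone, which gives no check against replicates and no test. *Sod1* encodes the copper and zinc enzyme of the cytosol (gene 20655, chr16:90220762-90226333, plus strand, GRCm38). Its level was 289 FPKM in Tc1 replicate 2 and 234 FPKM in Tc9 replicate 2, from 4741 and 3768 counts. The log2 ratio of Tc9 to Tc1, after scaling, was -0.33 (95% Wilson interval -0.39 to -0.27, which covers counting error only). *Sod2*, the manganese enzyme of the mitochondrial matrix (gene 20656, chr17:13007839-13018119, plus strand), had 25.0 FPKM in Tc1 replicate 2 and 18.1 FPKM in Tc9 replicate 2, from 2949 and 2066 counts. Its log2 ratio was -0.51 (-0.59 to -0.43). Both dismutases were thus lower in this Tc9 library, and the cytosolic one stood 11.6-fold above the mitochondrial one in Tc1 and 12.9-fold in Tc9.

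*Cat* encodes catalase, the peroxisomal enzyme that breaks hydrogen peroxide down without a reductant (gene 12359, chr2:103453904-103485153, minus strand). It was measured at 20.96 and 20.1 FPKM in the Tc1 libraries and at 24.8 and 25.4 FPKM in the Tc9 libraries, 20.5 ± 0.608 against 25.1 ± 0.403 (SD, n = 2 each). Both Tc9 libraries lay above both Tc1 libraries, 1.19-fold on average. The log2 difference was 0.25 (SE 0.11), and its adjusted p was 0.105 by edgeR's quasi-likelihood test, in which 1284 genes of 4 libraries took part, so that the difference did not pass the threshold of 0.05. It passed when Tc9 replicate 1 (adjusted p of 0.00698) or Tc9 replicate 2 (adjusted p of 0.0148) was left out, where the spread came from the Tc1 pair alone and the lone Tc9 library was assumed to vary like it.

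*Gpx1*, the cytosolic glutathione peroxidase (gene 14775, chr9:108339080-108340342, plus strand), had 148.9 FPKM in Tc1 replicate 2 and 110.3 and 126.6 FPKM in the Tc9 libraries. Both Tc9 libraries were below the single Tc1 library. In the edgeR quasi-likelihood test of 2622 genes in these 3 libraries, the log2 difference was -0.37 (SE 0.22) with an adjusted p of 0.335. The lone Tc1 library was assumed there to vary like the Tc9 pair, and the difference did not pass. Of all genes tested in these 3 libraries, 10.7% passed (7.51% higher and 3.2% lower in Tc9), 26.7% had an unadjusted p under 0.05 (of the 4 enzymes reached, 1, *Prdx3*), and in 81.9% the Tc1 library lay outside the Tc9 pair.

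Among the peroxiredoxins, *Prdx3* fell and *Prdx6* rose in Tc9 cells. *Prdx3*, the peroxiredoxin of the mitochondrial matrix (gene 11757, chr19:60864066-60874538, minus strand), had 64.5 and 69.1 FPKM in the Tc1 libraries and 49.7 and 48.2 FPKM in the Tc9 libraries, 66.8 ± 3.25 against 49.0 ± 1.03 (SD, n = 2 each). The groups did not overlap, and the level was 1.40-fold higher in Tc1 cells. The log2 difference was -0.48 (SE 0.11), with an adjusted p of 0.00919 by edgeR's quasi-likelihood test over 4 libraries. *Prdx3* and *Prdx1* are also members of the ferroptosis activation list of the study, which was taken from earlier publications, and this membership is not evidence of a direction here.

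*Prdx6*, the 1-Cys enzyme, reduces oxidized phospholipids as well as hydrogen peroxide and takes its electrons from glutathione (gene 11758, chr1:161240112-161251210, minus strand). Its levels were 49.3 and 49.4 FPKM in the Tc1 libraries and 67.3 and 64.2 FPKM in the Tc9 libraries, 49.3 ± 0.0707 against 65.7 ± 2.22 (SD, n = 2 each). Again the groups did not overlap, in the opposite direction to *Prdx3*. The rise was 1.30-fold, a log2 difference of 0.38 (SE 0.11) with an adjusted p of 0.0220 by edgeR's quasi-likelihood test.

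Of the 3 enzymes tested in 4 libraries, 1 was higher and 1 was lower in Tc9 cells, beside 17.4% of all genes tested that were higher and 16.7% that were lower (34.1% in either direction, and 46% at an unadjusted p under 0.05, which all 3 enzymes had). All 3 had groups that did not overlap, as did 70.4% of all genes tested. Both calls depended on the Tc1 pair. Without Tc1 replicate 1 or replicate 2, the adjusted p of *Prdx3* was 0.180 or 0.293 and that of *Prdx6* 0.359 or 0.386 (edgeR's quasi-likelihood test), with log2 differences of -0.53 or -0.43 and 0.37 or 0.38. The Tc9 pair, from which the spread was then taken, differed by a median of 0.20 on the log2 scale over 1229 genes with at least 1000 counts, the Tc1 pair by 0.046 over 625 genes.

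The remaining peroxiredoxins had 1 library per group or fewer. *Prdx1*, the abundant 2-Cys enzyme of the cytosol (gene 18477, chr4:116685599-116700000, plus strand), had 184 FPKM in Tc1 replicate 2 and 106 FPKM in Tc9 replicate 2, from 7458 and 4176 counts. The log2 ratio was -0.84 (95% Wilson interval -0.89 to -0.78), 1.78-fold higher in Tc1. *Prdx2*, its cytosolic relative (gene 21672, chr8:84969622-84974811, plus strand), had 101.8 and 95.3 FPKM from 4316 and 3917 counts, a log2 ratio of -0.14 (-0.20 to -0.08). Whether the pair differed in its response was not tested, and *Prdx1* exceeded *Prdx2* 1.80-fold in Tc1 and 1.11-fold in Tc9. *Prdx4*, the enzyme of the secretory pathway (gene 53381, chrX:155323918-155342272, minus strand), had 44.2 FPKM from 1172 counts in Tc9 replicate 2 and has no comparison.

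*Txn1* encodes the cytosolic thioredoxin that returns electrons to 2-Cys peroxiredoxins of the cytosol (gene 22166, chr4:57943373-57956411, minus strand). Its level was 366 FPKM in Tc1 replicate 2 and 202 FPKM in Tc9 replicate 2, from 10564 and 5663 counts. The log2 ratio was -0.90 (95% Wilson interval -0.95 to -0.85), 1.86-fold higher in Tc1. The level of *Txn1*, the reductant, was 1.99 times that of *Prdx1*, an enzyme it recycles, in Tc1 and 1.90 times in Tc9.

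**Figure D1:**
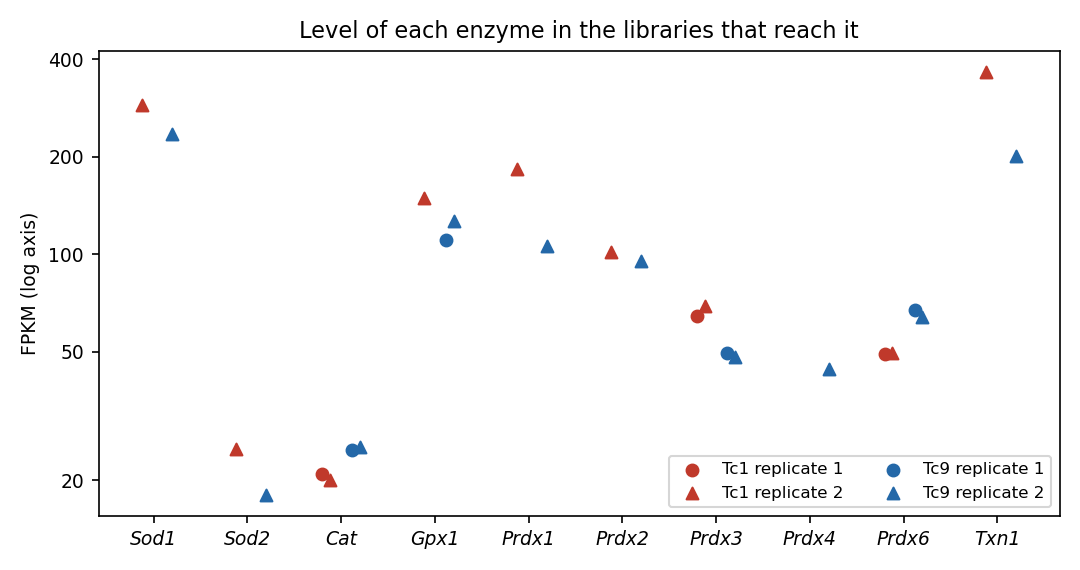
Level of each of the 10 enzymes in FPKM (log axis), 1 point for each library that reached the gene, Tc1 in red and Tc9 in blue, circles for replicate 1 and triangles for replicate 2. *Prdx3* sits between 48.2 and 49.7 FPKM in Tc9 against 64.5 and 69.1 in Tc1, while *Prdx6* and *Cat* are the enzymes with the Tc9 points on top.

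**Figure D2:**
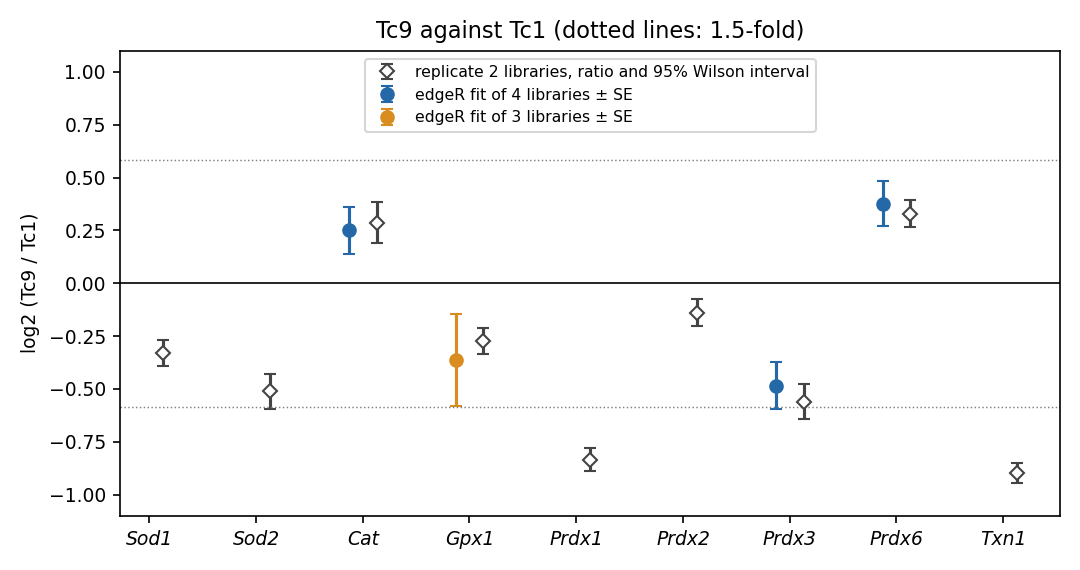
Difference of Tc9 from Tc1 on the log2 scale for the 9 enzymes with a comparison. Filled points are edgeR estimates with their SE (blue for 4 libraries, orange for 3), open diamonds are ratios of the replicate 2 libraries with 95% Wilson intervals of the counts, and dotted lines mark 1.5-fold. *Prdx1* (-0.84) and *Txn1* (-0.90) lie below the lower dotted line, and *Cat* and *Prdx6* lie above 0 in both measures.

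In the replicate 2 libraries as a whole, 7 of 9 enzymes had the lower value in Tc9, where 47.6% of 6161 genes did. The median log2 ratio of the enzymes was -0.33, and that of all genes 0.03. Past 1.5-fold were 2 of 9, *Prdx1* and *Txn1*, both lower, where 33.2% of all genes were past it (12.5% lower and 20.7% higher in Tc9). Among 3160 genes with at least 1000 counts, the abundance range of all 9 enzymes, 10.5% were lower and 13.3% higher past 1.5-fold. Only 6.67% of genes had a lower ratio than *Prdx1*, and 5.89% a lower one than *Txn1*. Between the Tc9 libraries themselves, 95% of genes with at least 1000 counts differed by at most 0.49 on the log2 scale, a spread that 4 of the 9 ratios exceeded (*Txn1*, *Prdx1*, *Prdx3* and *Sod2*), as did 40.7% of all genes and 32.1% of those with at least 1000 counts, so that this count was near the background. Whether *Txn1*, *Prdx1* and *Sod2* would differ between replicated groups was not tested. The counts over the 9 enzymes include *Prdx3*, *Prdx6*, *Cat* and *Gpx1*, whose replicate 2 libraries also entered the fits above.

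**Figure D3:**
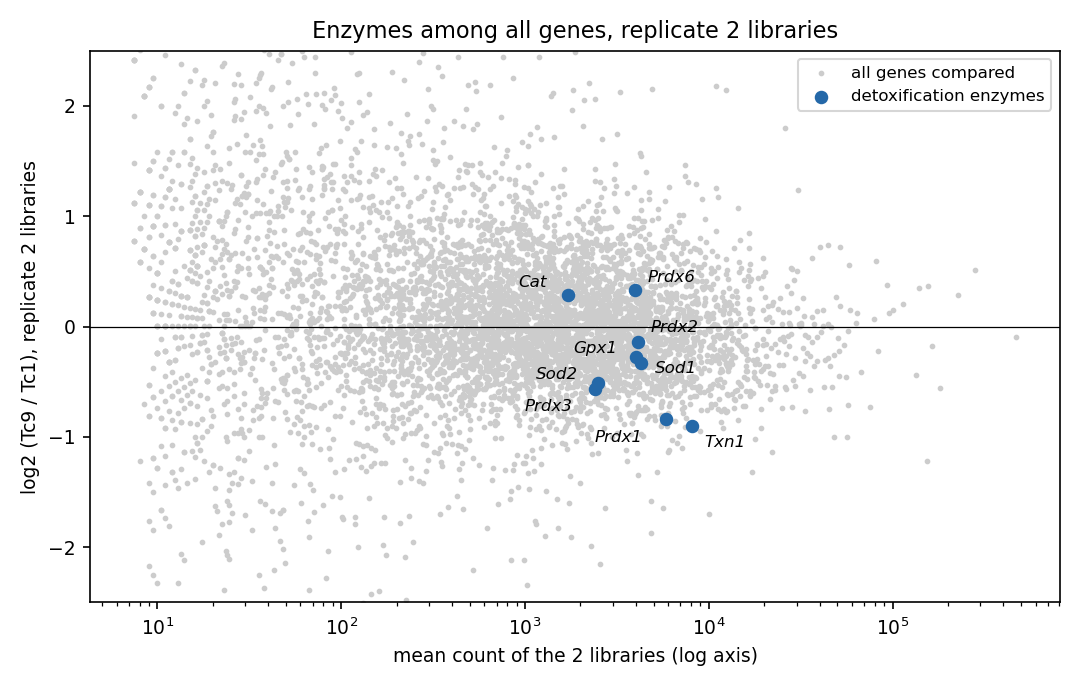
Log2 ratio of Tc9 to Tc1 in the replicate 2 libraries against the mean count of the 2 libraries (log axis), for 6161 genes in grey and the 9 enzymes in blue. The vertical axis ends at 2.5 in each direction, which leaves out 166 genes. All 9 enzymes lie among the well-counted genes, 7 of them below 0.

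The order of levels is given for the replicate 2 libraries, as a description of these 2 libraries. In Tc1 replicate 2 it ran from *Txn1* (366 FPKM) over *Sod1*, *Prdx1*, *Gpx1*, *Prdx2*, *Prdx3*, *Prdx6* and *Sod2* to *Cat* (20.1 FPKM). In Tc9 replicate 2 it ran from *Sod1* (234 FPKM) over *Txn1*, *Gpx1*, *Prdx1*, *Prdx2*, *Prdx6*, *Prdx3*, *Prdx4* and *Cat* to *Sod2* (18.1 FPKM). The neighbours *Txn1* and *Sod1*, *Prdx1* and *Gpx1*, *Prdx3* and *Prdx6*, and *Sod2* and *Cat* thus had opposite orders in the 2 libraries. Each of these pairs differed by at most 0.49 on the log2 scale in both libraries. That lies within the spread between the Tc9 libraries given above. The order of *Prdx3* and *Prdx6* was reversed between the groups in all 4 libraries, while that of the other 3 pairs rests on 1 library per group and was not tested. *Sod1* had a higher FPKM than 98.3% of the genes listed for Tc9 replicate 2, *Txn1* than 97.98% and *Gpx1* than 96.5%, while *Cat* (79.1%) and *Sod2* (73.0%) stood lowest among the 10 enzymes. The median over the 9 enzymes that both libraries reached was 101.8 FPKM in Tc1 replicate 2 and 95.3 FPKM in Tc9 replicate 2, and the sum, to which *Txn1* contributed 366 and 202 FPKM, was 1253 and 920 FPKM.

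Ratios between enzymes of the same library do not depend on scaling between libraries. *Prdx6* was at 0.764 and 0.715 times the level of *Prdx3* in the Tc1 libraries and at 1.35 and 1.33 times in the Tc9 libraries, so that the balance of the 1-Cys and the mitochondrial enzyme was on opposite sides of 1 in the groups. *Cat* was at 0.325 and 0.291 times the level of *Prdx3* in Tc1 and at 0.499 and 0.526 times in Tc9, and as *Prdx3* was lower and *Prdx6* and *Cat* were higher in both Tc9 libraries, these ratios could not overlap. The ratio of *Prdx6* to *Cat*, the pair with the higher Tc9 values, was 2.35 and 2.46 in Tc1 and 2.71 and 2.53 in Tc9, a smaller difference. With 2 libraries per group, the smallest p that an exact permutation test (two-sided) can give is 0.333, and no test of these ratios was made. In the replicate 2 libraries, *Prdx6* stood at 0.269 times *Prdx1* in Tc1 and at 0.605 times in Tc9, whereas the mitochondrial pair *Prdx3* and *Sod2* had ratios of 2.77 and 2.66. The ratio of *Prdx6* to *Gpx1*, both users of glutathione, was 0.331 in Tc1 replicate 2 and 0.610 and 0.507 in the Tc9 libraries.

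**Figure D4:**
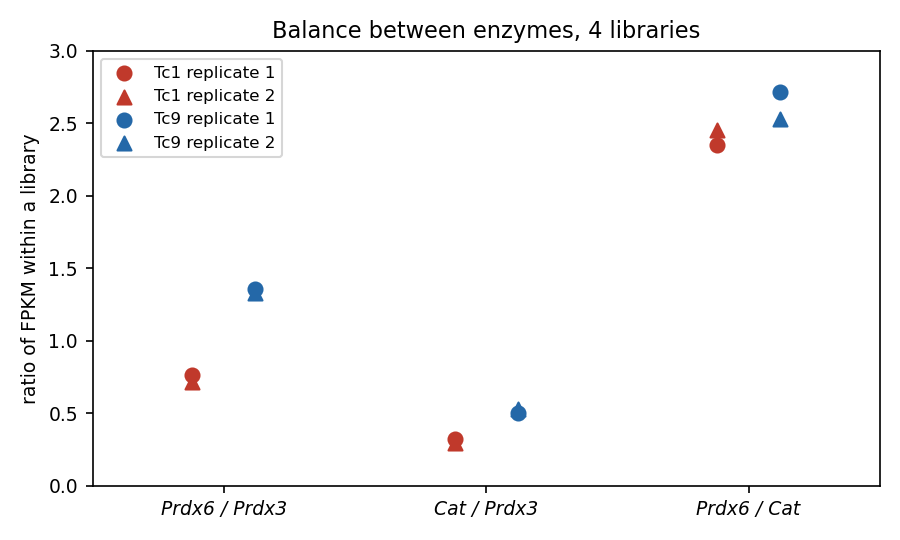
Ratio of FPKM values between enzymes of the same library, for the 3 enzymes that all 4 libraries reached, 1 point per library (Tc1 red, Tc9 blue, circles for replicate 1 and triangles for replicate 2). *Prdx6* over *Prdx3* is 0.715 to 0.764 in Tc1 and 1.33 to 1.35 in Tc9, which follows from the direction of each gene. *Prdx6* over *Cat* is 2.35 to 2.46 in Tc1 and 2.53 to 2.71 in Tc9.

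The promoters of *Prdx1* and *Txn1*, the enzymes past 1.5-fold in the replicate 2 libraries, are shown with the antioxidant response element, the site bound by NRF2 with small MAF proteins, searched as TGACNNNGC on both strands. Each line gives the 250 bases before the RefSeq start on GRCm38.p6, 5′ to 3′ on the strand of the gene, with a match in capitals. The *Prdx1* window (chr4:116685349-116685598, plus strand) holds 1 match, on the other strand and beginning 133 bases before the start, and the *Txn1* window (chr4:57956412-57956661, minus strand) holds none.
Prdx1 promoter: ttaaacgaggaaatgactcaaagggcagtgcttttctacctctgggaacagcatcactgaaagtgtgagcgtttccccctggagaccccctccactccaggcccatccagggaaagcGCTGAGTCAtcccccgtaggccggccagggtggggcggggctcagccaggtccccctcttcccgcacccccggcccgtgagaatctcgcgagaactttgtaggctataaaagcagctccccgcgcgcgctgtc
Txn1 promoter: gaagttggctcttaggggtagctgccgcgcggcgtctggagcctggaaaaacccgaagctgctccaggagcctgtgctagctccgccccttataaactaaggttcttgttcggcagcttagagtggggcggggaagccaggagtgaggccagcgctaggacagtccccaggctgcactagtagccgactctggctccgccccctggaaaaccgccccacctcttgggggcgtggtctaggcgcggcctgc

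Of the 9 enzymes with a window in the RefSeq table, *Prdx1* and *Sod1* held the motif, 2 of 9, and it was present in 10.2% of 32851 windows of the same length. A match describes the letters of the window and not a bound site.

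The partners of these enzymes in the thioredoxin and glutathione systems were given by a list of 30 genes. Of all genes tested in 4 libraries, 34.1% passed by edgeR and 46% had an unadjusted p under 0.05. The shares for 3 libraries are given above with *Gpx1*. None of the 2 tested in 4 libraries and none of the 9 tested in 3 libraries passed the edgeR test, nor did any by DESeq2, and an unadjusted p under 0.05 was found for 0 and 1 of them (*Gsr*). Of the 13 compared in the replicate 2 libraries, 3 were lower and 0 were higher in Tc9 past 1.5-fold, 9 of 13 were lower at any size, and the median log2 ratio was -0.18, beside 12.5%, 20.7% and 47.6% of all genes and a median of 0.03. *Slc7a11*, the cystine transporter that supplies glutathione synthesis, had 383 counts in Tc1 replicate 2 and 67 in Tc9 replicate 2, and the log2 ratio was -2.48 (95% Wilson interval -2.89 to -2.14). Glutathione reductase *Gsr* had 2731 counts in Tc1 replicate 2, above the 2018 and 1588 of the Tc9 libraries. Its log2 difference over the 3 libraries was -0.60 (SE 0.24, edgeR adjusted p of 0.178), so that it did not pass. *Sesn2*, a sestrin known to act together with peroxiredoxins, had 1814 and 1198 counts in the replicate 2 libraries, a log2 ratio of -0.60 that lies at the 1.5-fold limit.

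NADPH supply was given by 14 genes, of which 3 were tested in 4 libraries, 1 higher, 1 lower and 1 not past the threshold, beside 17.4% of all genes higher and 16.7% lower. *Mthfd1*, the cytosolic folate enzyme with an NADPH-forming step, fell from 6500 and 6840 counts in Tc1 to 3798 and 4120 in Tc9, a log2 difference of -0.75 (SE 0.11, edgeR adjusted p of 0.000813). *Me2*, a mitochondrial malic enzyme, rose from 3963 and 4018 counts to 5733 and 4776, a log2 difference of 0.40 (SE 0.12, edgeR adjusted p of 0.0291). It is counted as a member of the list, and whether it formed NADPH in these cells was not tested. Another malic enzyme of the list, *Me1*, named after its values were seen, did not rise. Its log2 difference over 3 libraries was -0.25 (SE 0.35), at no more than 57 counts per library. Without Tc1 replicate 1 or replicate 2, the adjusted p (edgeR) was 0.0597 or 0.0604 for *Mthfd1* and 0.359 or 0.344 for *Me2*, so that neither call was kept, with log2 differences of -0.79 or -0.71 for *Mthfd1* and 0.39 or 0.41 for *Me2*. The call of *Me2* also ended without the filter on low counts (edgeR adjusted p of 0.0936). Its difference was 0.26 without Tc9 replicate 1 and 0.53 without Tc9 replicate 2. None of 6 passed the edgeR test in 3 libraries, where *Idh1* and *Mthfd1* had an unadjusted p under 0.05 and DESeq2 called 1, *Mthfd1* (10.7% of all genes passed by edgeR and 26.7% had an unadjusted p under 0.05). The mitochondrial folate enzyme *Mthfd2* had 8337 and 3829 counts in the replicate 2 libraries, a log2 ratio of -1.12, and *Idh1*, the cytosolic NADP-dependent isocitrate dehydrogenase, had 176 and 290, a log2 ratio of 0.72. In all, 1 of 11 genes compared there was higher and 2 were lower past 1.5-fold, and 8 were lower at any size (20.7%, 12.5% and 47.6% of all genes), with a median of -0.09.

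Redox regulators were given by 15 genes, of which none of 2 passed in 4 libraries (0 at an unadjusted p under 0.05 and 0 by DESeq2) and 1 of 7 in 3 libraries, where 2 of 7 had an unadjusted p under 0.05 (10.7% and 26.7% of all genes). This was *Hmox1*, heme oxygenase 1, at 502 counts in Tc1 replicate 2, above the 196 and 240 of the Tc9 libraries. Its log2 difference was -1.20 (SE 0.23). The call of *Hmox1* rests on a single Tc1 library, which was assumed to vary like the Tc9 pair that supplied the spread. The spread of Tc1 cells did not enter it. *Mafg*, a small MAF partner of NRF2, was at 68.7 counts in Tc1 replicate 2, and the Tc9 libraries, at 50.5 and 18.1, lay apart from each other (edgeR adjusted p of 0.306). *Ppargc1b*, a coactivator of mitochondrial genes, was at 135 counts in the Tc1 library, below the 190 and 245 of the Tc9 libraries (edgeR adjusted p of 0.180). *Nqo1*, with only 40 and 8 counts in the replicate 2 libraries, was the third gene past 1.5-fold lower. It is under the limit of 50 counts for naming and is named after its values were seen. Together with *Hmox1* and *Mafg* it made 3 of 11 genes lower past 1.5-fold, with 1 higher, 8 of 11 lower at any size and a median of -0.16, where the shares of all genes were 12.5%, 20.7% and 47.6%. In 4 libraries, where none of the 2 regulators tested passed, 34.1% of all genes passed by edgeR and 46% had an unadjusted p under 0.05.

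Sources of superoxide and peroxide, among them the subunits of the NADPH oxidase, were given by 17 genes, none of which was tested in 4 libraries. The only one tested in 3 libraries (shares of all genes are given above with *Gpx1*) was *Cyba*, the membrane subunit that pairs with the catalytic one. It had a log2 difference of -0.50 (SE 0.25). It did not pass by edgeR or DESeq2, nor at an unadjusted p under 0.05. Of 6 genes compared in the replicate 2 libraries, 0 were past 1.5-fold in either direction (33.2% of all genes), 3 of 6 were lower at any size (47.6% of all genes), and the median log2 ratio was 0.16. The catalytic subunit, *Cybb*, was not among these 6 and had 3 counts in each of the 3 libraries that reached it.

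**Figure D5:**
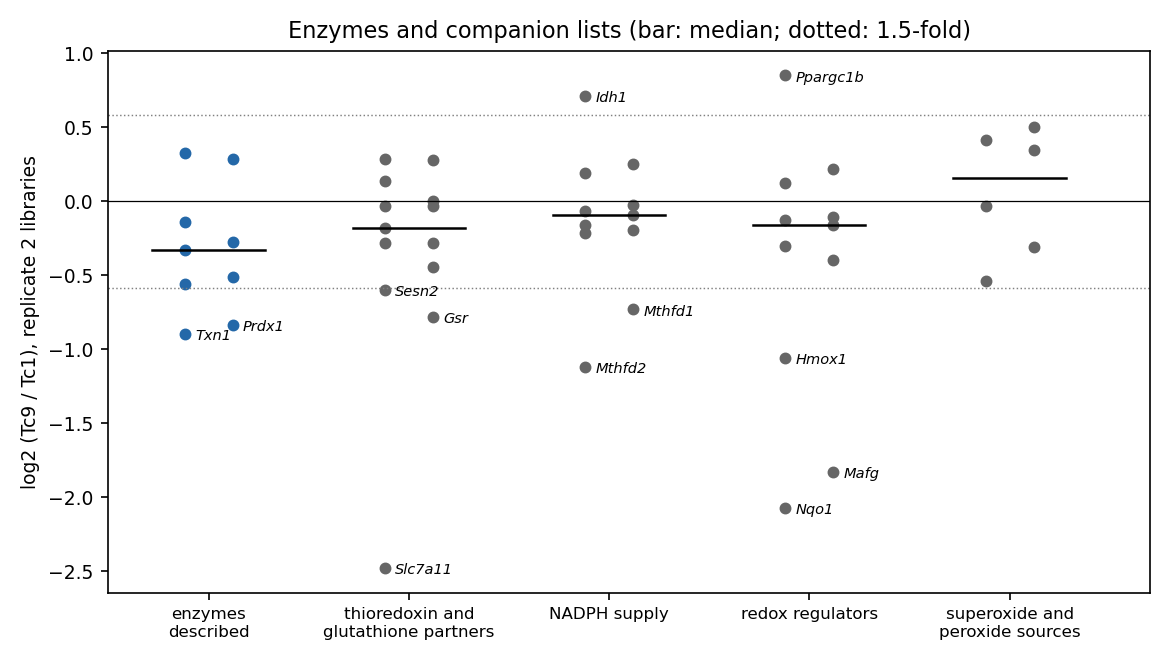
Log2 ratio of Tc9 to Tc1 in the replicate 2 libraries for the 9 enzymes (blue) and for the genes of the companion lists (grey), 1 point per gene, with the median of each list as a bar and 1.5-fold as dotted lines. The enzymes have a median of -0.33, the thioredoxin and glutathione partners -0.18 and the superoxide and peroxide sources 0.16, and genes past 1.5-fold are named.

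Markers of other cells were read beside these results. T cell markers summed to 4217 CPM in Tc1 replicate 2 and 4182 CPM in Tc9 replicate 2, and the 6 of 9 that all libraries reached to 1659 and 1699 CPM in Tc1 and 1814 and 1789 CPM in Tc9. Erythroid markers, whose cells are rich in *Prdx2*, *Cat* and *Sod1*, summed to 1.05 and 2.26 CPM over 11 genes in the replicate 2 libraries, with 4 at 0 in both and the highest at 18 and 43 counts (*Epor*). Melanoma markers summed to 2.61 and 4.28 CPM over 6 genes, with *Dct*, *Tyrp1* and *Sox10* at 0 in both and *Pmel* the highest. Myeloid markers summed to 21.02 and 27.3 CPM over 11 genes, with *Lyz2*, *C1qa* and *C1qc* at 0 in both and *Apoe* and *Cd68* the highest. *Cd68* was at 7.17 and 7.04 CPM in the Tc1 libraries and at 11.4 and 14.0 CPM in the Tc9 libraries, without overlap. *Apoe* went the other way, also without overlap, at 13.96 and 13.2 CPM in Tc1 and at 10.99 and 12.7 CPM in Tc9. Of all genes tested in 4 libraries, 70.4% had groups that did not overlap. B cell markers summed to 5.41 and 15.5 CPM over 4 genes, nearly all of it *Cd79b*, and fibroblast and endothelial markers to 14.3 and 14.4 CPM over 5 genes, with *Col3a1* and *Cdh5* at 0 in both and *Pecam1* the highest. The part of these cells in the differences of the enzymes was not tested.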

How the data were processed

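The authors deposited for each library a table of expected counts (estimated reads per gene, not normalized), FPKM values scaled by gene length and library size, and a length in bases per gene. Their submission notes name mm10, and the aligner and the counting program are not given in the sources used here. Each comparison was made over the genes that its tables reach, 1681 for 4 libraries, 3467 for 3 and 7964 for the replicate 2 libraries, with a gene not listed within reach taken as 0. One incomplete last row was dropped. Depth was taken from count and FPKM against Tc9 replicate 2, over genes with at least 500 counts. The replicates differed beyond sampling noise, with a chi-square per gene of 4.40 (Tc1) and 56.9 (Tc9).

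Expected counts were rounded and tested with edgeR 4.0.16 in R 4.3.3 (quasi-likelihood test, two-sided, TMM, filterByExpr at a minimum count of 10, Benjamini-Hochberg adjustment over all genes tested). The spread, and so the error, comes from 1 degree of freedom per pair of libraries, shared across genes. Log2 ratios of the replicate 2 libraries used a prior count of 2 and the TMM factors of the 4-library range. The intervals and the lowest readable levels hold counting error alone, because they come from the counts of single libraries. No molecular identifiers are named in the sources used here. DESeq2 1.42.0 and limma 3.58.1 on log2(FPKM + 1) were alternatives, and TMM factors from 3 libraries or from the replicate 2 libraries were added after seeing the data. The scripts were tested on simulated data. Sequences were read from GENCODE M21 and RefSeq, and identical 50-base runs were searched among GENCODE transcripts.

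The enzymes, the companion lists and the marker lists were chosen with earlier results of these data known. All 10 enzymes are named. The result of 1 gene of the lists is not reported here and was left out of its counts. Of the companion lists, genes past an adjusted p of 0.05, or past 1.5-fold in the replicate 2 libraries with at least 50 counts in either, are named (at most 5 per list and direction), and of each marker list the genes with the highest count.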

Additional observations from a re-analysis of the deposited data

How the results depend on the processing

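Alternatives were run for the counts of calls, the enzymes, *Mthfd1*, *Me2* and *Hmox1*, and no log2 difference or ratio among these changed sign. They were not run for the order of levels, the ratios between enzymes and the other companion genes. Of the genes tested in 4 libraries, 224 were higher and 214 lower in Tc9, and without a filter on low counts 130 and 110. Leaving out 1 library at a time gave 72 to 404 higher and 39 to 407 lower, with the low ends when a Tc1 library was left out (72 and 39 without replicate 1, 82 and 54 without replicate 2) and the high ends when a Tc9 library was (404 and 407, 343 and 351). Higher calls outnumbered lower ones in the fit of 4 libraries, and lower ones were the more numerous without either Tc9 library. The cause was not tested. With 1 library left out, the log2 difference of *Prdx3* ranged from -0.53 to -0.43 and that of *Prdx6* from 0.34 to 0.42, both no longer past the threshold without either Tc1 library, and that of *Cat* from 0.23 to 0.28, past it without either Tc9 library, and the other alternatives gave up to 0.29 for *Cat*. That of *Gpx1* was -0.46 to -0.27 with either Tc9 library left out, with no test. The ratio of *Txn1* was -0.85 with library size alone, beyond its counting interval. DESeq2 called 202 higher and 175 lower. Of the companion genes, *Mthfd1* and *Me2* lost their calls without either Tc1 library, and *Me2* also without the filter on low counts (edgeR adjusted p of 0.0936).

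The labels number the replicates alike in both groups, and deviations of same-numbered libraries correlated at -0.064. With only 2 pairs of libraries, this shows no pairing by number but cannot exclude one. With the replicate number as a block, 231 genes were higher and 213 lower, with 406 of the 444 calls shared with the 438, and the adjusted p (edgeR) was 0.00945 for *Prdx3*, 0.0435 for *Prdx6* and 0.219 for *Cat*, with log2 differences of -0.48, 0.38 and 0.25. Single libraries per group limit *Prdx1*, *Prdx2*, *Txn1*, *Sod1* and *Sod2*, whose intervals hold no replicate error.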
